A study of Mus musculus with 14 samples.

Results

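The liver response to an adenovirus that carried a control hairpin was examined in obese mice. The comparison set the 4 arrays of the GFP shRNA group against the 5 arrays of the vehicle group, 9 of the 14 arrays in the study. Arrays were assigned to the groups by their labels. The choice of this comparison and of the gene lists was made with earlier results of these data known. All mice were C57BL/6J made obese by diet (DIO). The GFP shRNA group had received an adenovirus whose short hairpin RNA (shRNA) was directed at GFP (green fluorescent protein), a jellyfish protein that has no gene in the mouse, and the vehicle group had received no virus. A further group of 5 arrays, from mice given an adenovirus with a hairpin against Jnk1 (the kinase gene Mapk8), is used here only to set levels side by side. Age, viral dose, route, time after injection, the promoter of the hairpin and the diet were not given in the sources used here. The labels number the samples as replicates (1 to 5 for vehicle; 1, 2, 3 and 5 for GFP shRNA) without saying that each is a separate mouse, so the p-values speak only to the spread among samples, which may be technical. Virus and hairpin were always present together, and their parts in a difference cannot be told apart.

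Adenovirus given to a mouse is taken up largely by the liver, by hepatocytes and by Kupffer cells, the macrophages that sit in the liver sinusoids. Cells that sense viral nucleic acid make type I interferon, and activated lymphocytes make interferon gamma. Both signal through JAK kinases to STAT and IRF factors, which bind short elements in promoters: the interferon-stimulated response element (ISRE) and the gamma-activated site (GAS). Their targets include antiviral enzymes, the interferon-inducible GTPases that attack vacuoles around intracellular microbes, and the immunoproteasome and peptide transporters that supply peptides to MHC class I.

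Promoters of GTPase genes are shown because these genes rose most as a group, and because they hold the ISRE letters more often than the other lists examined for them. The last window is that of Ifit1, which is an antiviral effector and not a GTPase. The ISRE was searched as GAAANNGAAA on both strands (TTTCNNTTTC is the same motif read from the other strand) in the 250 bases before each start site of the RefSeq promoters of GRCm38.p6. Capitals mark the match at the centre of each window, and each window is written 5′ to 3′ on the strand of its gene. The Gbp3 and Ifit1 windows each hold a further match that is not marked.
Igtp, chr11:58199502-58199551, plus strand: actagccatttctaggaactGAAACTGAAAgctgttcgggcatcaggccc
Irgm2, chr11:58214893-58214942, plus strand: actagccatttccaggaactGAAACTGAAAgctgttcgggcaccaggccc
Gbp2, chr3:142620584-142620633, plus strand: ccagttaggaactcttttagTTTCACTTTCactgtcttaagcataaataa
Gbp3, chr3:142559979-142560028, plus strand: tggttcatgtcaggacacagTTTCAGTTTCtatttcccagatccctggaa
Gbp7, chr3:142530263-142530312, plus strand: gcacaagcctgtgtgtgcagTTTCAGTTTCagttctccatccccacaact
Ifit1, chr19:34640784-34640833, plus strand: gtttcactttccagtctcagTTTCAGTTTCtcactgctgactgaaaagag
Of the 9 GTPases tested, 7 had a promoter in the table and 6 of these (85.7%) held the ISRE letters. Irgm1, whose window is not shown, was among the 6. Ifi47 was the 1 without a match, and Gbp6 and Iigp1 had no entry. Among the antiviral effectors tested the share was 9 of 27 genes (33.3%), among all genes that rose it was 23 of 143 (16.1%), among genes that fell it was 0 of 40, and among all tested genes it was 225 of 6566 (3.43%). The GAS letters TTCNNNGAA, which read the same on both strands, stood in 3 of the 7 GTPase promoters (Igtp, Irgm2 and Gbp7) and in 462 of the 6566 (7.04%). In Igtp and Irgm2 they lie 2 bases before the ISRE shown, and the Igtp and Irgm2 windows match at 48 of 50 positions. These shares describe letters in a window of fixed length and no factor's binding was measured.

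Across the 13575 probe sets tested, 350 (2.58%) passed an adjusted p of 0.05 in limma. Of these, 278 (2.05%) were higher and 72 (0.53%) were lower under GFP shRNA, and 112 rose and 11 fell by at least 2-fold. Counting 1 probe set for each of 8027 genes, 175 rose (2.18%) and 50 fell (0.623%). These shares are the background for the counts of list members that rose or fell below. The vehicle and GFP shRNA arrays did not overlap for 855 probe sets (6.3%), of which 309 were among those called. The called genes leaned upward. Of all 8027 genes, called or not, 46.1% were above 0 and 53.9% below 0, the background for such counts in the lists below. The median difference over all genes was -0.019 (log2), but quantile normalization holds this median near 0, so it is not a result. Over all probe sets the median was 0.027 with the values as deposited and -0.105 with median scaling. At an unadjusted p under 0.05 there were 2075 probe sets (15.3%), and of the 8027 genes 625 (7.79%) were higher and 652 (8.12%) lower, the background for the unadjusted counts given below. The probe sets with the largest rise (4.49) and the largest fall (-2.14) have no gene symbol of their own and are not named here. Leaving out GFP shRNA array 5 gave 198 calls and fitting the 9 arrays without the Jnk1 group gave 203, while 170 of the 350 were called whichever single array was left out.

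**Figure D1:**
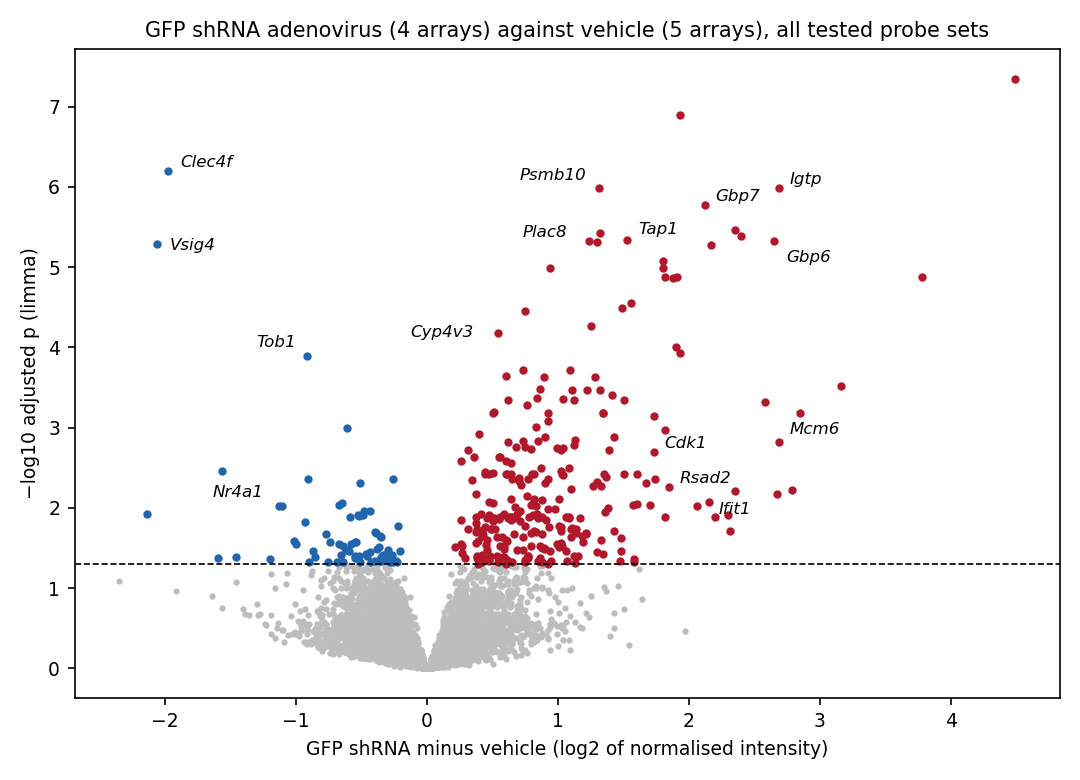
Difference between GFP shRNA and vehicle (horizontal, log2 of normalised intensity) against the adjusted p of limma (vertical, −log10 scale) for 13575 probe sets. Red points rose, blue points fell, grey points did not pass, and the dashed line marks an adjusted p of 0.05. The 278 red points outnumber the 72 blue points, and Clec4f and Vsig4 are the named genes with the largest falls.

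The 9 arrays compared here were of similar quality. The median deposited intensity averaged 49.6 ± 5.84 (SD) over the 4 GFP shRNA arrays and 45.1 ± 3.32 over the 5 vehicle arrays (exact permutation p = 0.206, two-sided), and the exact p was 0.952 for the bacterial spike-ins, 0.413 for the 3' to 5' ratio of Gapdh and 0.222 for that of actin. GFP shRNA array 2 stood apart, with a median of 58.3 against 45.8 to 47.8 on the other 3 and a correlation of 0.942 with its own group against 0.964 to 0.967. Vehicle array 1 had the highest averages of its group for the interferon-inducible GTPases and the antiviral effectors (0.64 and 0.37, log2 above the vehicle mean). For the nucleic acid sensors vehicle array 3 was highest, and for the MHC class I peptide genes vehicle array 2. Albumin, the main secreted protein of hepatocytes, ran at normalised intensities of 5070 to 5700 with vehicle and 5470 to 5960 with GFP shRNA. Its difference was 0.05 (adjusted p = 0.69), which turned to -0.09 when arrays were scaled to equal medians. Of 28 hepatocyte genes tested, 1 fell, and this was Tat, taken up with the metabolic genes. At an unadjusted p under 0.05, 5 were lower and 0 higher, against 8.12% of all genes lower. The list averages did not overlap, at -0.04 to 0.06 with vehicle and -0.19 to -0.08 with GFP shRNA. Their summed intensity was 88500 to 92400 with vehicle and 87300 to 90500 with GFP shRNA. Hepatocyte transcripts were thus high on every array of both groups, though slightly lower on average with GFP shRNA. Mapk8, which the GFP hairpin does not target, was 149 to 186 with vehicle and 159 to 182 with GFP shRNA (difference -0.08 ± 0.11 SE, adjusted p = 0.769).

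The interferon-inducible GTPases rose furthest. All 9 members tested were higher with GFP shRNA, with a median difference of 2.17 (log2) against a background of 2.18% of genes called higher and a median of -0.019. Averaged over the list, the vehicle arrays lay from -0.24 to 0.64 around the vehicle mean and the GFP shRNA arrays from 1.79 to 2.68, the lowest and highest levels being those of array 1 and array 2. Vehicle array 1 was the one at 0.64 and the other 4 lay at or below 0.03. All 9 were called whichever array was left out and under each scaling tried (as deposited and median scaled).

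Igtp, an immunity-related GTPase recruited to parasite vacuoles, had normalised intensities of 616, 267, 281, 306 and 384 with vehicle and 2050, 2630, 2000 and 2460 with GFP shRNA. Every GFP shRNA array was over 3 times the highest vehicle array, and the difference was 2.69 ± 0.20 (SE, adjusted p = 1.03e-06). Gbp6, a guanylate-binding protein, was 280, 107, 108, 125 and 153 with vehicle and 703, 1200, 776 and 1010 with GFP shRNA (2.65 ± 0.23, adjusted p = 4.78e-06). The highest vehicle value of both genes came from array 1, and no GFP shRNA array reached down to it. Ifi47 was 201 to 302 with vehicle and 812, 1900, 965 and 1140 with GFP shRNA (2.17 ± 0.19, adjusted p = 5.3e-06). Gbp3 rose by 2.35 (adjusted p = 3.44e-06), Gbp7 by 2.12 (1.67e-06) and Irgm2 by 1.80 (1.04e-05), and the groups overlapped for none of these.

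Iigp1 had the highest normalised intensity and the smallest change of the list, although intensities of different probe sets do not rank expression. It stood at 3160, 2230, 2160, 2380 and 2200 with vehicle and at 4650, 4900, 4280 and 4640 with GFP shRNA, a difference of 0.94 ± 0.09 (SE, adjusted p = 1.04e-05). Gbp2 had the largest difference of the list, 2.85 ± 0.40 (adjusted p = 0.000662), but it leaned on 1 array. Its values were 27.2 to 50.7 with vehicle and 116, 952, 235 and 206 with GFP shRNA, and without array 2 the difference was 2.28 (adjusted p = 3.13e-05). Irgm1, which the naming rule did not pick and which is given after its value was seen, rose by 1.74 (adjusted p = 0.00434). The groups did not overlap for 8 of the 9 GTPases, against 6.3% of all probe sets, and Irgm1 was the exception.

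**Figure D2:**
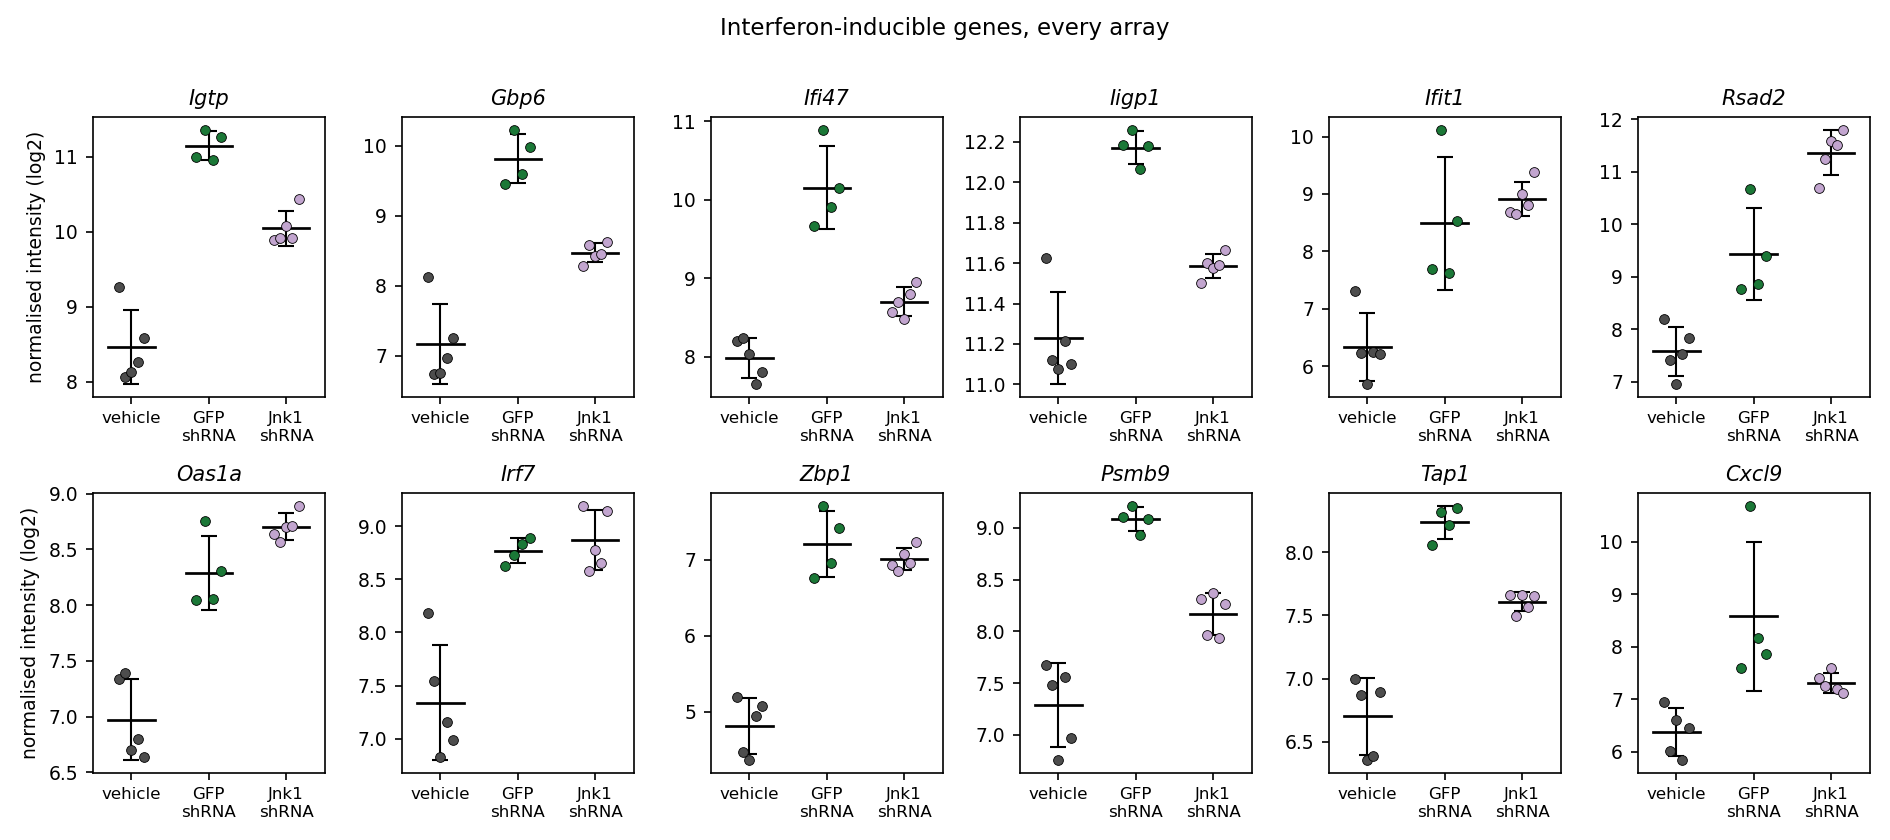
Normalised intensity (log2) of 12 interferon-inducible genes on every array, with the mean as a line and the SD as a bar, for vehicle (n = 5), GFP shRNA (n = 4) and Jnk1 shRNA (n = 5); each panel has its own scale. No GFP shRNA array overlaps a vehicle array in any panel. Within the GFP shRNA group, array 2 is the highest for Igtp, Gbp6, Ifi47, Iigp1, Ifit1, Rsad2, Oas1a, Zbp1, Psmb9 and Cxcl9. It is not the highest for Irf7.

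Among antiviral effectors, the proteins that block viral replication directly, 18 of 32 rose, against 2.18% of all genes. Of the 32, 0 fell, and the median was 0.82. A further 9 of the 32 were higher at an unadjusted p under 0.05 without passing the adjustment, beside the 7.79% of all genes higher at that threshold. Between 15 and 20 rose when single arrays were left out, and 13 rose when the 9 arrays were fitted alone. Oas1a, which makes the oligoadenylate signal that switches on an RNA-degrading enzyme, was 162, 168, 104, 111 and 99.6 with vehicle and 265, 431, 266 and 316 with GFP shRNA (1.32 ± 0.17, adjusted p = 0.000345). Bst2, which tethers budding virus to the cell surface, was 293 to 488 with vehicle and 645 to 727 with GFP shRNA (0.84 ± 0.11, adjusted p = 0.00043). Parp12 was 215 to 297 and 401 to 519 (0.89 ± 0.11, adjusted p = 0.000235). For these genes the groups did not overlap, and all were called whichever array was left out.

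Rsad2 (viperin) and Ifit1, which binds viral RNA, varied more within the GFP shRNA group. Rsad2 was 295, 170, 124, 184 and 227 with vehicle and 438, 1630, 468 and 677 with GFP shRNA (1.85 ± 0.34, adjusted p = 0.00549). Ifit1 was 159, 74.6, 51.5, 76 and 74.4 with vehicle and 206, 1110, 196 and 371 with GFP shRNA (2.15 ± 0.41, adjusted p = 0.00836). Array 2 was highest for both, and without it the differences were 1.44 (adjusted p = 0.00878) and 1.63 (0.00879). Oasl2 and Slfn4 rose by 1.82 and 2.58 (adjusted p = 0.00106 and 0.00048) from vehicle means under 28.4, the lowest mean intensity tested, so the size of those changes is uncertain. Trim30a rose by 1.35 (adjusted p = 0.00381) and Parp9 by 0.72 (0.00522).

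Upstream of the effectors, 4 of 9 nucleic acid sensors and adaptors rose (2.18% of all genes did), with a median of 0.46. When single arrays were left out, 2 or 3 of them passed, and in the 9 arrays alone 3 of 8 tested did (median 0.35). Zbp1, a sensor of Z-form nucleic acid, was 20.6 to 36.5 with vehicle and 108, 209, 124 and 170 with GFP shRNA (2.40 ± 0.20, adjusted p = 4.1e-06), and a further probe set for it rose by 3.78. Its vehicle mean was also under 28.4. Ifih1 (MDA5), a sensor of double-stranded RNA, was 260 to 380 with vehicle and 521 to 644 with GFP shRNA (0.85 ± 0.13, adjusted p = 0.00148). Tbk1, the kinase that activates IRF factors, passed at 0.46 (adjusted p = 0.0252) but not on removal of vehicle array 1, 2 or 5, or of GFP shRNA array 2 or 5 (adjusted p 0.0511 to 0.0851). Dhx58 (LGP2), a relative of Ifih1 that binds double-stranded RNA, was 35.5 to 81.6 with vehicle and 85.3 to 98.5 with GFP shRNA (0.88, adjusted p = 0.0317), a call that 7 of the 9 single-array removals ended (0.0616 to 0.0973), and its other probe set gave -0.03 (0.98).

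Of 16 genes of interferon receptors, kinases and factors, 3 rose, with a median of 0.11. Irf7, a factor that amplifies type I interferon and is itself interferon-inducible, was 291, 186, 114, 143 and 127 with vehicle and 394, 425, 455 and 474 with GFP shRNA (1.43 ± 0.22, adjusted p = 0.00132). Array 1 was again the highest vehicle array, below every GFP shRNA array. Stat2 rose by 0.57 (adjusted p = 0.0229), a call lost on removal of vehicle array 3, 4 or 5, or of GFP shRNA array 1, 2 or 5 (adjusted p 0.0528 to 0.064). Irf9, its partner, rose by 0.59 (adjusted p = 0.0329), a call lost on removal of vehicle array 2, 3 or 5, or of GFP shRNA array 1, 3 or 5 (adjusted p 0.0748 to 0.0906).

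The interferon genes themselves, Ifnb1 and Ifng, lay below the filter on low intensity and were not tested. Of the enzymes that attach or remove ISG15, Uba7 and Usp18 were higher by 1.02 and 1.48 (adjusted p = 0.0197 and 0.0347). Neither passed without vehicle array 4 or 5 or without GFP shRNA array 2 or 5, nor did Usp18 without vehicle array 3, and a further probe set for Uba7 differed by -0.12 (adjusted p = 0.84). Of 10 genes for adenovirus entry, 0 passed (1 of them had an unadjusted p under 0.05), including Cxadr, the coxsackie and adenovirus receptor, at 0.52 (adjusted p = 0.115).

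Of 15 genes tested that prepare peptides for MHC class I, 8 rose (2.18% of all genes did) and 0 fell, with a median of 0.49. Averaged over the list the GFP shRNA arrays lay at 0.57 to 0.69 against -0.14 to 0.11 for vehicle. Psmb10, Psmb9 and Psmb8, the 3 catalytic subunits of the immunoproteasome, all rose. Psmb10 was 161, 186, 176, 213 and 175 with vehicle and 418, 494, 413 and 486 with GFP shRNA (1.31 ± 0.10, adjusted p = 1.03e-06). Psmb9 was 204, 179, 108, 189 and 125 and then 551, 594, 490 and 543 (1.80 ± 0.17, adjusted p = 8.35e-06), and Psmb8 rose by 1.11 (0.000345). For Psmb10 and Psmb9 the GFP shRNA arrays were close together and far above vehicle, array 2 included.

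Tap1, part of the transporter that carries peptides into the endoplasmic reticulum, was 81.9 to 128 with vehicle and 266 to 326 with GFP shRNA (1.53 ± 0.13, adjusted p = 4.63e-06). Tapbp (tapasin), which bridges it to class I molecules, rose by 0.62 (adjusted p = 0.000459). H2-D1, a classical class I heavy chain, rose by 0.41 (adjusted p = 0.0118), but not without GFP shRNA array 5 (adjusted p = 0.0507) nor with median scaling (0.281). Of its further probe sets, those at 0.49 and 0.47 passed (adjusted p = 0.018 and 0.0085). Those at 0.29, 0.24 and -0.92 did not (0.4, 0.55 and 0.38). By contrast 0 of 31 constitutive proteasome subunits passed, 3 of them higher at an unadjusted p under 0.05, with a median of 0.04. With median scaling 5 of the 15 class I genes passed, and without GFP shRNA array 5 also 5. Of 6 MHC class II genes, only Ctss, the protease cathepsin S, passed (0.77 ± 0.14, adjusted p = 0.00434), and all 6 were above 0.

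**Figure D3:**
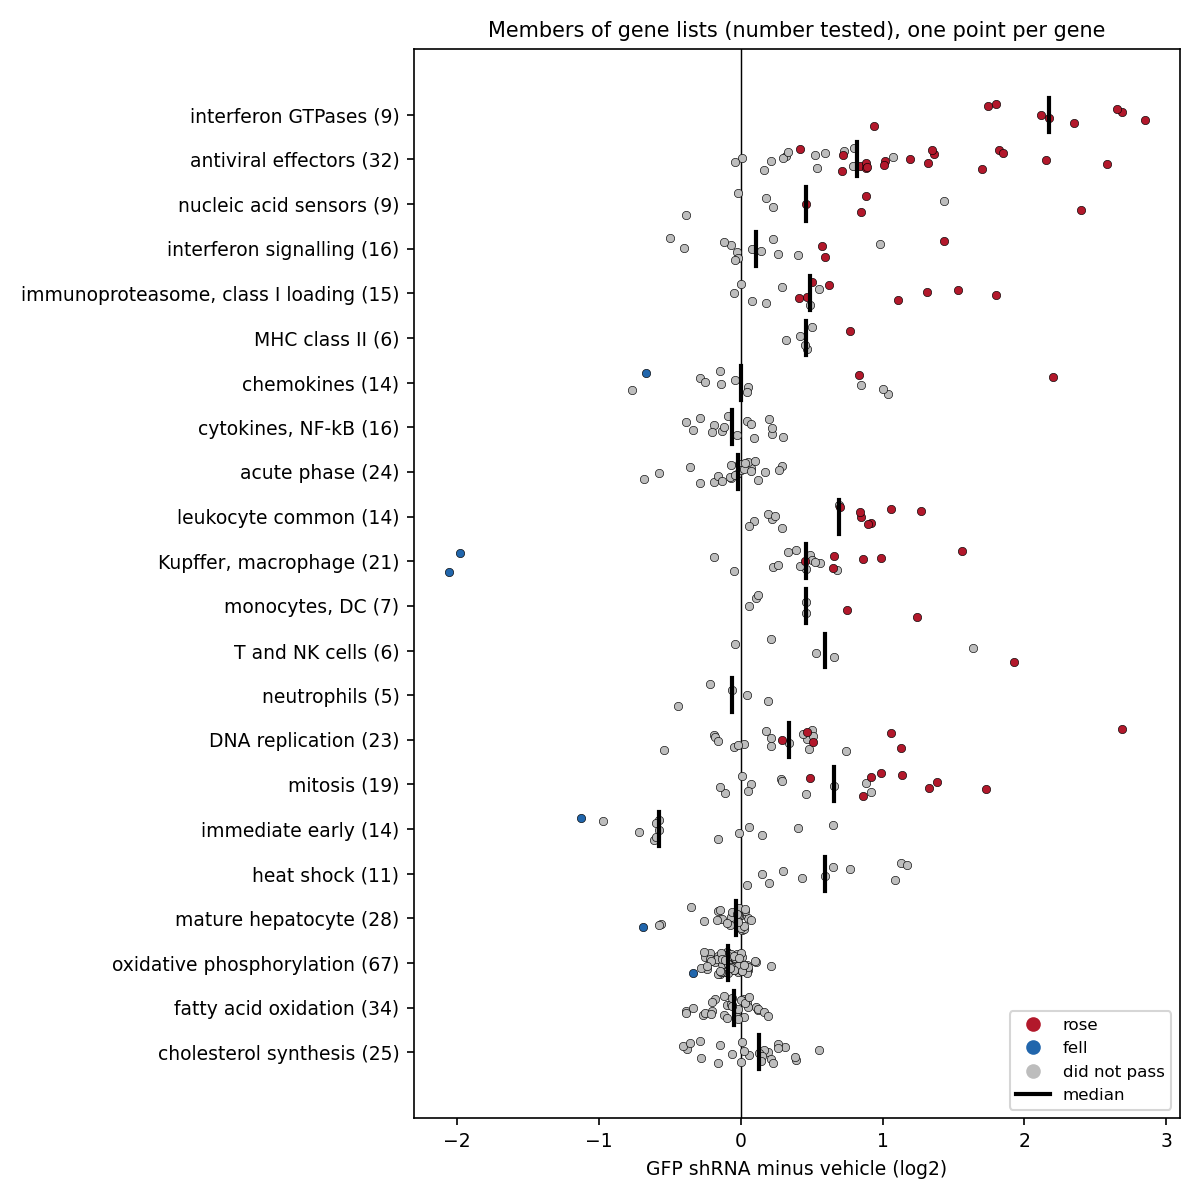
Differences between GFP shRNA and vehicle (horizontal, log2) for the tested members of 22 gene lists, 1 point per gene, with the list median as a black bar; red points rose, blue points fell and grey points did not pass. The interferon GTPases lie farthest to the right with a median of 2.17, and Clec4f and Vsig4 are the blue points far to the left of the other Kupffer and macrophage genes.

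Most chemokine, cytokine and acute phase genes did not pass. Of 14 chemokines 2 rose and 1 fell, against 2.18% and 0.623% of all genes. Cxcl9, which draws T cells and is a classic target of interferon gamma, was 57.3 to 124 with vehicle and 193, 1640, 287 and 233 with GFP shRNA (2.20 ± 0.45, adjusted p = 0.0131). Array 2 was far above the others: without it the difference was 1.52 (adjusted p = 0.00136), and with the 9 arrays fitted alone the gene did not pass (0.0731). Cxcl10, a related ligand of the same receptor, was 51.2 to 601 with vehicle and 214 to 1570 with GFP shRNA and did not pass (1.04, adjusted p = 0.448). Ccl6 rose by 0.83 (adjusted p = 0.00942). Cxcl12, which holds cells in place through CXCR4, fell from 633 to 865 with vehicle to 385 to 513 with GFP shRNA (-0.67 ± 0.13, adjusted p = 0.00909), although its second probe set gave -0.31 (0.13).

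Of 16 cytokine and NF-kB genes 0 passed and 1 was higher at an unadjusted p under 0.05. Of 24 acute phase genes 0 passed, also at an unadjusted p under 0.05, with a median of -0.02. Saa1, the major acute phase protein of mouse liver, ranged from 946 to 4290 with vehicle and from 689 to 3350 with GFP shRNA (-0.36, adjusted p = 0.746). Il1b differed by -0.39 (adjusted p = 0.415), and Tnf and Il6 lay below the filter. The wide vehicle range of Saa1 limits what could be detected.

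Kupffer cell genes moved in opposite directions. Clec4f, a lectin by which mouse Kupffer cells are recognised, was 442, 478, 449, 370 and 407 with vehicle and 80.2, 124, 118 and 117 with GFP shRNA. Vsig4, the complement receptor of resident macrophages, was 421, 390, 393, 269 and 263 with vehicle and 91.7, 61.1, 78.2 and 101 with GFP shRNA. Every GFP shRNA array was below every vehicle array, and the falls were -1.98 ± 0.14 (SE, adjusted p = 6.34e-07) and -2.06 ± 0.18 (5.11e-06). Both held whichever array was left out, and they were the largest falls of any named gene. Of 21 Kupffer and macrophage genes tested, 6 rose and these 2 fell, against 2.18% and 0.623% of all genes.

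Other macrophage genes were higher. Mpeg1, which encodes the pore-forming protein perforin-2, was 298 to 591 with vehicle and 1170 to 1510 with GFP shRNA (1.56 ± 0.16, adjusted p = 2.81e-05). Cd5l, a secreted protein of tissue macrophages, was 553 to 865 with vehicle and 1240, 1240, 1250 and 1250 with GFP shRNA (0.86 ± 0.11, adjusted p = 0.000328). Fcer1g and Tyrobp, adaptors that pass on signals from immune receptors, rose by 0.99 and 0.65 (adjusted p = 0.00181 and 0.00434). Adgre1, which encodes the macrophage antigen F4/80, was 178 to 280 with vehicle and 238 to 340 with GFP shRNA and did not pass (0.33, adjusted p = 0.25). Averaged over the list the groups overlapped, at -0.33 to 0.27 with vehicle and 0.19 to 0.34 with GFP shRNA. In RNA from whole liver, fewer cells of a type and less of its RNA per cell cannot be told apart.

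**Figure D4:**
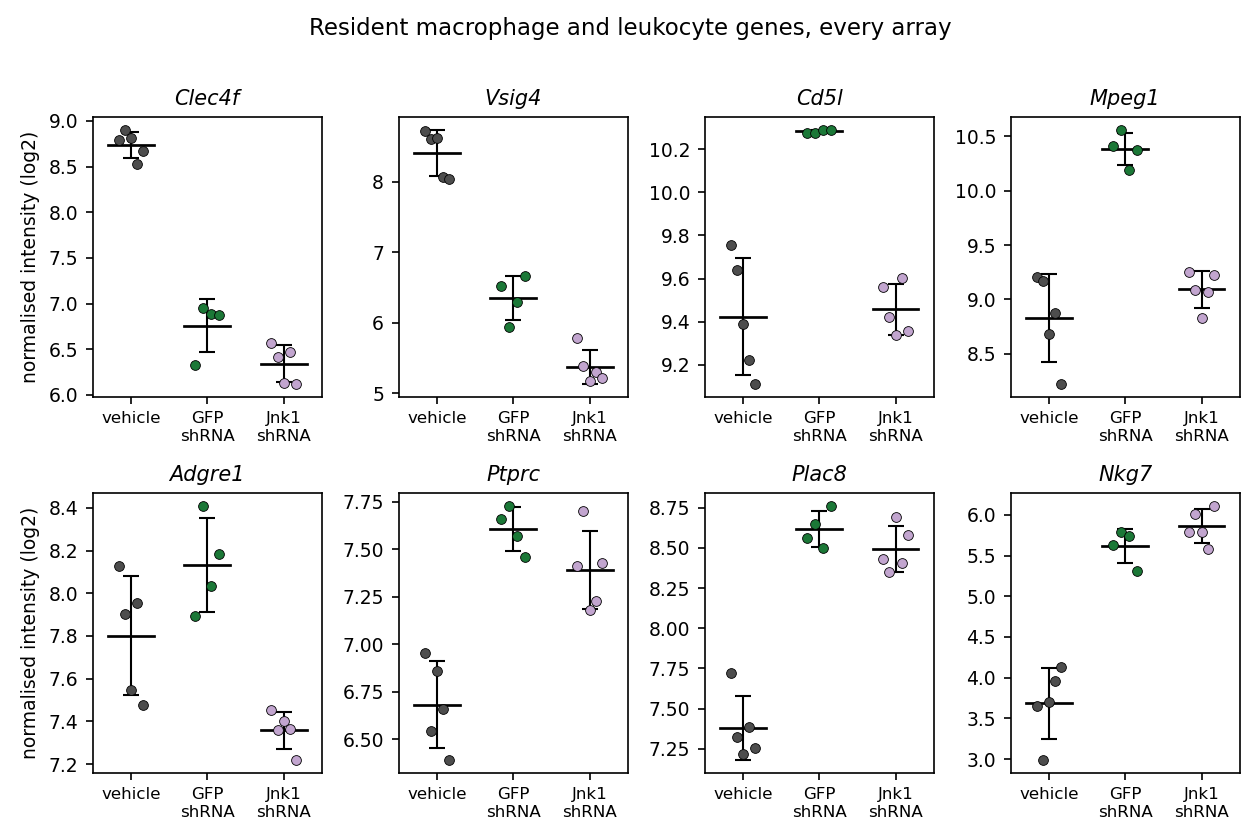
Normalised intensity (log2) of 8 macrophage and leukocyte genes on every array, with the mean as a line and the SD as a bar, for vehicle (n = 5), GFP shRNA (n = 4) and Jnk1 shRNA (n = 5); each panel has its own scale. Clec4f and Vsig4 lie lower on both kinds of virus arrays than on vehicle arrays, while Ptprc, Plac8 and Nkg7 lie higher.

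Of 14 genes shared by white blood cells in general 7 rose, against 2.18% of all genes, and all 14 were above 0. Their median was 0.69, with list averages of -0.13 to 0.21 with vehicle and 0.44 to 0.82 with GFP shRNA. Ptprc (CD45), the surface phosphatase of all white blood cells, was 124, 93.4, 116, 101 and 83.9 with vehicle and 202, 212, 190 and 176 with GFP shRNA (0.92 ± 0.13, adjusted p = 0.000662). The groups did not overlap, and the call held whichever array was left out. Cd52 and Cd53 rose by 1.27 and 0.90 (adjusted p = 0.00527 and 0.00131). When the 9 arrays were fitted alone, 4 of the 14 passed.

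Which white blood cells these were was read from their defining markers, most of which lay below the filter. Of 22 T and NK cell genes on the array 6 were tested and 1 rose: Nkg7, a granule protein of cytotoxic cells, at 7.94 to 17.5 with vehicle and 39.8 to 55.1 with GFP shRNA (1.93 ± 0.23, adjusted p = 0.000118). The vehicle level was under 28.4, so the size of the change is uncertain. In the 9 arrays alone only 2 of these genes passed the filter, Nkg7 not among them, and 0 rose (0 also at an unadjusted p under 0.05; median 0.08 against 0.59 for the 6). Cd3e and Cd8a, which define T cells, were below the filter. Of 7 monocyte and dendritic cell genes 2 rose, led by Plac8 at 149 to 211 with vehicle and 362 to 434 with GFP shRNA (1.24 ± 0.11, adjusted p = 4.78e-06). Fcgr1 was the other (0.75, adjusted p = 0.0442), a call lost on removal of vehicle array 3, 4 or 5, or of GFP shRNA array 1, 2 or 3 (adjusted p 0.0686 to 0.144). Of 5 neutrophil genes and of 3 B and plasma cell genes 0 passed, also at an unadjusted p under 0.05, and the neutrophil averages overlapped (-0.65 to 0.23 and -0.47 to 0.34).

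Few genes of structural cell types passed. Of 17 stellate cell and matrix genes 2 rose and 14 were above 0, with 5 higher at an unadjusted p under 0.05, and the list averages did not overlap (-0.10 to 0.09 with vehicle, 0.16 to 0.36 with GFP shRNA). The 2 were Vim, the filament protein vimentin, at 0.98 (adjusted p = 0.0104), and Col3a1, a fibrillar collagen, at 0.64 (0.0131), which did not pass in the 9 arrays alone (0.0573). Of 16 endothelial genes 1 fell, Cdh5, the junction protein of endothelium, by 0.55 on the log2 scale (adjusted p = 0.0267). It did not pass on removal of vehicle array 2, 3 or 5, or of GFP shRNA array 1 or 5 (adjusted p 0.0539 to 0.102). Of 5 cholangiocyte genes 0 passed, also at an unadjusted p under 0.05.

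Part of the cell cycle genes rose, most of those named here from low levels. Of 23 DNA replication genes 6 rose (2.18% of all genes did) and 0 fell, with a median of 0.34, and of 19 mitosis genes 8 rose and 0 fell, with a median of 0.66. In the 9 arrays alone 21 and 13 of them passed the intensity filter, so 2 and 6 members were tested only through the levels of the Jnk1 shRNA arrays. Of the mitosis genes that rose, Cdk1, Prc1, Top2a and Racgap1 were among these. The medians over the 21 and 13 were 0.43 and 0.28. The averages over the 23 and 19 genes include the members tested only through the Jnk1 shRNA arrays, and did not overlap. They were -0.04 to 0.05 with vehicle and 0.34 to 0.52 with GFP shRNA for replication, and -0.28 to 0.12 and 0.54 to 0.82 for mitosis. The counts were fragile. Leaving out single arrays left 2 to 4 replication genes and 3 to 8 mitosis genes, the fewest on removal of vehicle array 3, or of GFP shRNA array 3 or 5, and the 9 arrays fitted alone left 1 and 0 (9 and 6 were higher there at an unadjusted p under 0.05).

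Mcm6, a subunit of the replicative helicase, was 9.13, 27.1, 31.2, 16.9 and 4.33 with vehicle and 82.5, 93.6, 84.8 and 105 with GFP shRNA (2.69 ± 0.41, adjusted p = 0.00151), and a further probe set for it rose by 1.49 (3.2e-05). Cdk1, the kinase that drives entry into mitosis, was 8.94 to 21.7 with vehicle and 34.3 to 72.3 with GFP shRNA (1.73 ± 0.28, adjusted p = 0.00203). The groups did not overlap for either gene, and both vehicle means were under 28.4. Hmgb2 rose by 1.38 (adjusted p = 0.00993). Pcna, the replication clamp, was 373 to 428 with vehicle and 481 to 503 with GFP shRNA (0.29, adjusted p = 0.0418), a small difference that did not pass with median scaling (0.555) or when any array except vehicle array 2 was left out (0.0694 to 0.106). Mki67 was below the filter. Which cells carried these transcripts cannot be told apart in whole liver RNA.

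Cdkn1a, the p53 target p21 that halts the cell cycle, rose alongside. It was 102, 85.9, 86.4, 87.3 and 62.5 with vehicle and 145, 223, 207 and 147 with GFP shRNA (1.08 ± 0.18, adjusted p = 0.00321). Casp1, which processes interleukin 1 beta and is also interferon-inducible, was the only other one of 24 p53 target and apoptosis genes to pass (1.02 ± 0.17, adjusted p = 0.00343). Of 22 genes of the unfolded protein response 0 passed, with 1 at an unadjusted p under 0.05. Of 11 heat shock genes 0 passed, although all 11 were above 0 (median 0.59) and 4 had an unadjusted p under 0.05. The averages over the heat shock genes spanned -0.60 to 0.31 with vehicle and 0.05 to 1.09 with GFP shRNA, so the groups overlapped.

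**Figure D5:**
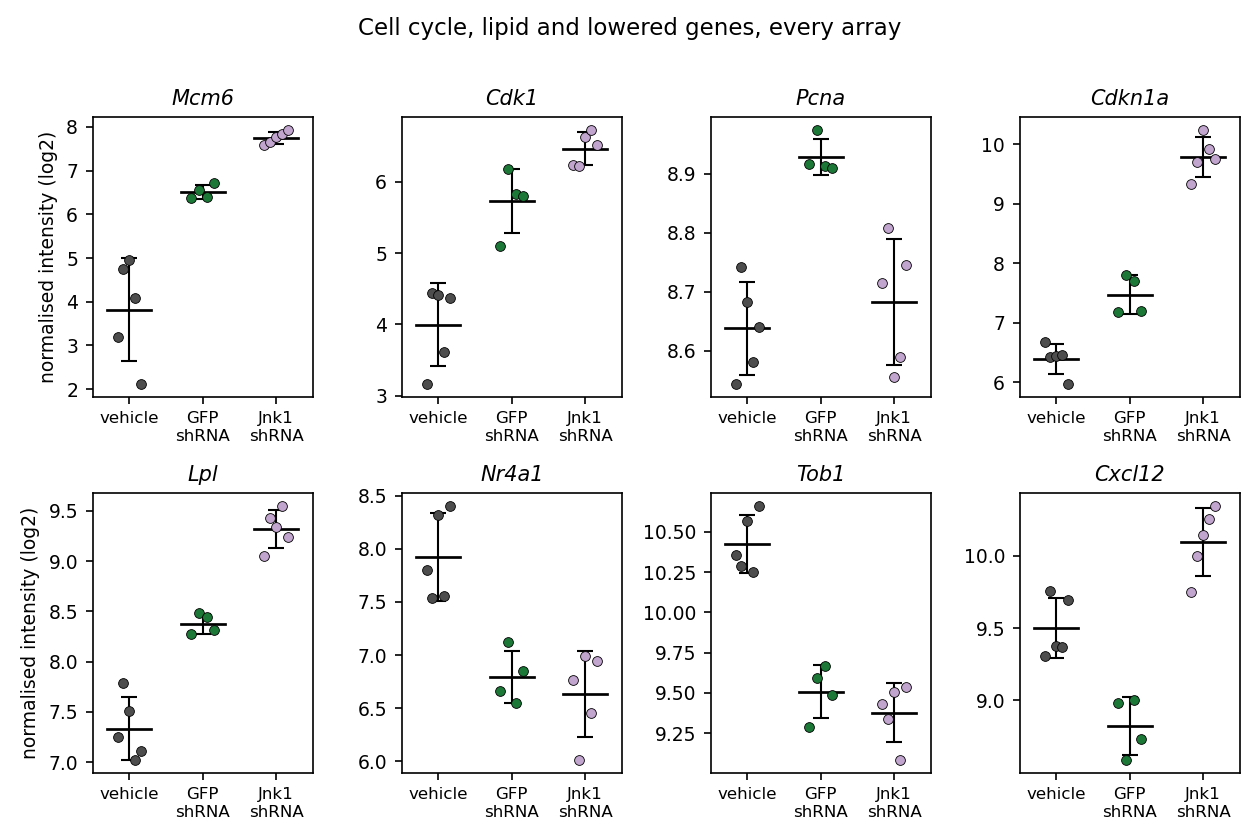
Normalised intensity (log2) of 8 genes on every array, with the mean as a line and the SD as a bar, for vehicle (n = 5), GFP shRNA (n = 4) and Jnk1 shRNA (n = 5); each panel has its own scale. Mcm6, Cdk1, Cdkn1a and Lpl are higher with GFP shRNA and higher again in mean with Jnk1 shRNA, Nr4a1 and Tob1 are lower in both virus groups, and Cxcl12 is lower with GFP shRNA and higher with Jnk1 shRNA.

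Genes that fell were fewer and mostly changed by less than 2-fold. Nr4a1, an immediate early nuclear receptor, was 223, 186, 319, 188 and 339 with vehicle and 101, 139, 93.8 and 115 with GFP shRNA (-1.13 ± 0.22, adjusted p = 0.00944). It was the 1 of 14 immediate early genes to pass, 6 of which were lower at an unadjusted p under 0.05. Slc25a25, a mitochondrial carrier of adenine nucleotides, was 359 to 842 with vehicle and 190 to 294 with GFP shRNA (-1.11 ± 0.22, adjusted p = 0.00939). Tob1, an antiproliferative protein, was 1220 to 1620 with vehicle and 625 to 812 with GFP shRNA (-0.92 ± 0.11, adjusted p = 0.000127). The groups did not overlap for these genes and all were called whichever array was left out. Zfyve21 and Ak4 fell by 0.65 and 0.59 on the log2 scale (adjusted p = 0.00877 and 0.013).

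Lipid genes of the droplet and uptake list gave 3 rises among 21. Lpl, the lipase that frees fatty acids from lipoproteins, was 152, 221, 182, 130 and 138 with vehicle and 310, 357, 349 and 318 with GFP shRNA (1.04 ± 0.14, adjusted p = 0.000436), with no overlap, although a further probe set gave 0.59 (0.37). Cidec, a droplet protein that enlarges fat stores, was 17.9 to 37.1 with vehicle and 47.5, 63.4, 127 and 113 with GFP shRNA (1.67 ± 0.30, adjusted p = 0.00496), again from a vehicle mean under 28.4. Plin2, the main droplet coat protein of liver, was higher by 0.43 (adjusted p = 0.0218) and did not pass with median scaling (0.263), nor on removal of vehicle array 3, 4 or 5, or of GFP shRNA array 3 or 5 (0.0501 to 0.0803).

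Most metabolic genes did not pass. Of 26 lipogenic genes 2 fell, Dgat2 and Lpin1, and both calls were lost on removal of vehicle array 2, 3, 4 or 5, or of GFP shRNA array 2 or 5 (adjusted p 0.0501 to 0.167; Dgat2 also without GFP shRNA array 3). Srebf1 and Fasn did not pass (-0.20 and -0.21, adjusted p = 0.585 and 0.769). Of 34 fatty acid oxidation genes 0 passed and 3 were lower at an unadjusted p under 0.05. Of 25 cholesterol synthesis genes 0 passed, with 6 at an unadjusted p under 0.05. Of 67 oxidative phosphorylation genes 1 fell (Ndufa2) and 54 were below 0 (against 53.9% of all genes). The list median was -0.09, and 13 were lower at an unadjusted p under 0.05 (against 8.12% of all genes). The list averages were -0.03 to 0.05 with vehicle and -0.13 to -0.05 with GFP shRNA and did not overlap. Median scaling moved this median to -0.27 and that of all probe sets from -0.019 to -0.105. Of 45 amino acid genes 2 fell, 38 were below 0 and 17 were lower at an unadjusted p under 0.05, with a median of -0.15. Cbs, which makes cystathionine from homocysteine, was 955 to 1160 with vehicle and 718 to 852 with GFP shRNA (-0.44 ± 0.09, adjusted p = 0.0109; 0.0507 without GFP shRNA array 5). Tat, an enzyme of tyrosine breakdown, was the other (-0.69, adjusted p = 0.0472), a call that ended without any single array except vehicle array 1 or GFP shRNA array 1 (adjusted p 0.0667 to 0.167).

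Of 19 genes of glucose output and glycogen 2 fell, Tat again and Ppargc1a, a coactivator of the fasting response. Of the 19, 17 were below 0 and 7 were lower at an unadjusted p under 0.05, with a median of -0.19, and the list averages overlapped (-0.15 to 0.18 and -0.35 to -0.03). Ppargc1a was 103 to 150 with vehicle and 70.3 to 106 with GFP shRNA (-0.60, adjusted p = 0.0343), a call that 6 of the 9 single-array removals ended (0.0588 to 0.125). Leaving out single arrays left 0 to 4 of the list lower, and 0 passed in the 9 arrays alone (7 were lower there at an unadjusted p under 0.05). The gluconeogenic enzymes Pck1 and G6pc were 2130 to 2680 and 1190 to 2380 with vehicle and 1590 to 2150 and 979 to 2160 with GFP shRNA, and neither passed (-0.36 and -0.38, adjusted p = 0.142 and 0.464). Cyp7a1, the rate-limiting enzyme of bile acid synthesis, differed by -0.49 (adjusted p = 0.517) with values of 216 to 1060 and 232 to 400. Ppara differed by -0.39 (adjusted p = 0.488). Of 31 P450 genes 2 rose and 1 fell, against 2.18% and 0.623% of all genes. Cyp4v3, a fatty acid hydroxylase, was 1700 to 1970 with vehicle and 2460 to 2780 with GFP shRNA (0.54 ± 0.06, adjusted p = 6.66e-05), and Cyp3a11, a drug-oxidising enzyme, was 2560 to 3140 and 3340 to 3940 (0.34 ± 0.06, adjusted p = 0.0045). With median scaling neither passed (adjusted p = 0.141 and 0.433).

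The Jnk1 shRNA arrays show what levels the same genes had under another virus of the same kind. They share the GFP arrays in any difference taken from them, and 17.7% of genes were called higher and 16.5% lower with Jnk1 shRNA than with GFP shRNA. The Jnk1 shRNA arrays stood apart in quality: their bacterial spike-ins averaged 7.89 to 8.76 (log2) against 8.83 to 9.01 on the GFP shRNA arrays, and their 3' to 5' ratios of Gapdh were 0.708 to 0.758 against 0.656 to 0.698. The part of this in the differences between the viruses was not tested. Of the 9 GTPases, 8 were lower with Jnk1 shRNA, with a median of -1.10: Igtp was 946 to 1390 (difference -1.10, adjusted p = 0.000467) and Iigp1 was 2900 to 3250 (-0.58, 0.000114). Igtp with Jnk1 shRNA thus lay between the vehicle and GFP shRNA ranges. Antiviral effectors did not follow one direction. Of the 32, 8 were higher and 4 lower, with Rsad2 at 1650 to 3560 (1.93, adjusted p = 0.000352) and Parp9 at 195 to 277 (-1.29, 2.17e-06).

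Clec4f was 69.4 to 94.5 and Vsig4 36.2 to 55 with Jnk1 shRNA, both lower than with GFP shRNA (-0.42 and -0.98, adjusted p = 0.0282 and 0.000651). For Clec4f that difference did not pass without GFP shRNA array 2, 3 or 5 (adjusted p = 0.082, 0.0758 and 0.0756) or with median scaling (0.139). Mpeg1 was 455 to 608 and Cd5l 648 to 778 there, close to their vehicle ranges and lower than with GFP shRNA (-1.30 and -0.82, adjusted p = 1.68e-05 and 3.49e-05). Ptprc, Plac8 and Nkg7 did not pass between the viruses (-0.21, -0.13 and 0.24). Cdkn1a was 643 to 1210, higher by a further 2.32 (adjusted p = 1.83e-07), and Lpl was 531 to 749, higher by 0.94 (8.74e-05). Cxcl12 was 859 to 1300, higher by 1.27 (adjusted p = 2.54e-06), with 4 of its 5 arrays above every vehicle array. The doses of the viruses were not given in the sources used here, so dose and hairpin cannot be told apart.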

How the data were processed

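Liver RNA was measured on a 1-colour Affymetrix mouse array, 1 array per sample. The authors deposited a linear intensity for each of 22690 probe sets on each array; the software used and any background correction or detection call were not given in the sources used here. The deposited intensity values had been scaled by array to a trimmed mean of 150.05 to 150.06, read from the values. Because array medians spanned 0.482 on the log2 scale, arrays were quantile normalized, the 5th percentile served as a floor, and values were put on the log2 scale. The 64 control probe sets and the 40% of the others with the lowest mean were left out, so 13575 were tested and the lowest mean tested was 28.4. Without detection calls, the size of a change from a mean under this is uncertain. Precision is limited by the number of arrays.

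Differences were tested with limma 3.58.1 (R 4.3.3) on 3 group means over all 14 arrays, with an intensity trend, and Benjamini-Hochberg adjustment over all 13575 probe sets. The spread is therefore shared with the Jnk1 shRNA arrays. Those arrays correlated more closely with their own group (0.9755 to 0.981) than the vehicle and GFP shRNA arrays did with theirs (0.9419 to 0.9702). Of the 350 calls, 186 were kept when the 9 arrays were fitted alone. The part of the closer Jnk1 shRNA arrays in the calls was not tested. Called means an adjusted p under 0.05, and rose or fell is used of called genes. Differences are log2 GFP shRNA minus vehicle, with the standard error (SE). Single quality measures were compared by exact two-sided permutation. The code was tested on simulated data.

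Symbols came from the platform annotation: 20393 probe sets had 1 symbol, 691 several and 1606 none. Where a gene had several tested probe sets (2871 genes), the brightest on average stood for it. Named genes were the 15 largest rises and falls whose groups did not overlap, up to 4 called members of each list (8 in lists with many calls) and a set given whatever its result; clones and predicted genes were left undescribed. The comparison, the gene lists and the named genes were chosen with earlier results of these data known. Samples were not paired by replicate number in the main fit. The correlation of deviations was -0.235 to 0.120 for same-numbered samples and -0.154 to 0.304 for the others. These few values cannot exclude a pairing. Alternatives were the scaling, the filter, a pseudocount of 16, the variance model, array weights, the samples fitted, a single probe set for every gene, a block on the replicate number, and the omission of single arrays. Promoters were matched by symbol: 6566 of 8027 tested genes had one.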

Additional observations from a re-analysis of the deposited data

Results flagged for a closer look

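Within the vehicle group (n = 5) and the GFP shRNA group (n = 4), 380 sets of values were examined for a single array far from the others, and 22 (5.79%) held one, where chance gives about 1 in 20. GFP shRNA array 2 stood out for its median intensity (58.3), its correlation with its own group (0.9419), Gbp7 (1010), Pcna (503), Vim (479), and the averages of the coagulation (-0.07) and apolipoprotein (-0.02) genes, which are log2 values around the vehicle mean. GFP shRNA array 1 stood out for Clec4f (80.2, the lowest of its group), Cd48 (69.9), and the averages of the tricarboxylic acid cycle (0.04) and sex- or growth hormone-dependent (-0.10) genes. GFP shRNA array 5 had the lowest Gapdh 3' to 5' ratio (0.656).

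Among vehicle arrays, array 1 was high for Iigp1 (3160), Plin2 (2720), Tyrobp (206) and the monocyte and dendritic cell average (0.45), and low for the mitosis average (-0.28). Vehicle array 2 stood out for Ndufa2 (548) and for the averages of lipid droplet (0.21), neutrophil (-0.65) and p53 target (-0.36) genes. Vehicle array 3 was low for Mapk8 (149). Vehicle array 1 was therefore nearer to the GFP shRNA arrays than its group for the interferon and macrophage genes Iigp1 and Tyrobp, and without it those differences were 1.05 and 0.73 against 0.94 and 0.65 with it. The part of array handling or of the animals in these values was not tested.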

How the results depend on the processing

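Of 113 named genes called, 0 changed direction under any alternative, 51 were tested and called under all of them, 5 more were called wherever tested, and 45 lost the call when some single array was left out. In the 9 arrays alone 8 of the 113 lay below the filter and were not tested (Kcnk1, Ms4a4b, Rbm43, Nkg7, Cdk1, Prc1, Top2a and Racgap1). The 9 GTPases and the falls of Clec4f and Vsig4 kept their calls in all alternatives tried. Fitting the 9 arrays alone gave 203 calls (161 higher, 42 lower, 74 at least 2-fold), with 4 leukocyte, 1 replication and 0 mitosis genes higher. Median scaling gave 185 higher, with 5 class I pathway and 3 replication genes, and turned Albumin (Alb) to -0.09. With the replicate number as a block there were 247 calls, 202 higher and 45 lower, with 3 replication and 5 mitosis genes; of the 350 calls, 226 were kept, and 30 named calls were lost. Array weights gave 116 lower. A pseudocount gave 78 and 1 probe set per gene 77 changes of at least 2-fold. No filter left 3 replication and 4 mitosis genes, and no intensity trend 2 replication genes.

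Leaving out single arrays gave 198 to 383 calls, 175 to 296 higher, 23 to 99 lower and 93 to 130 at least 2-fold. The fewest lower calls came without vehicle array 3 (23) or GFP shRNA array 5 (23), then vehicle array 5 (28) and GFP shRNA array 2 (44). The ranges were 15 to 20 effectors, 5 to 8 class I pathway, 6 to 7 leukocyte, 4 to 9 Kupffer (rose), 2 to 4 replication and 3 to 8 mitosis genes. Saa1, not called, ran from -0.70 to 0.06, the latter without GFP shRNA array 3. The difference of Gstp1 between the viruses turned from 0.16 to -0.28 as deposited and -0.11 with median scaling. The causes were not tested. Genes near the lowest mean tested, replication and mitosis genes among them, have the least certain sizes.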

Other observations

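Of 26 lysosome and phagosome genes 5 rose (2.18% of all genes did) and 22 were above 0 (46.1% of all genes were), with a median of 0.14. With median scaling 1 rose and the median was 0.00, and leaving out single arrays gave 2 to 6, the fewest without vehicle array 5. Psap, the precursor of the activators of sphingolipid breakdown, was 1130 to 1250 with vehicle and 1480 to 1670 with GFP shRNA (0.40 ± 0.06, adjusted p = 0.00119 in limma), a difference that did not pass with median scaling (0.433). Of 30 actin cytoskeleton genes 2 rose, and 29 were above 0. Tmsb4x, which binds actin monomers, rose from 941 to 1170 with vehicle to 1370 to 1550 with GFP shRNA (0.50 ± 0.07, adjusted p = 0.000662), and with median scaling the adjusted p was 0.115. Of 22 complement genes 2 rose and 1 fell, against 2.18% and 0.623% of all genes. The rises, C1s1 (0.26, adjusted p = 0.0286) and C2 (0.48, 0.0397), are proteins of the classical pathway, and their calls ended on 5 and 7 of the 9 single-array removals. Between 0 and 3 members rose when single arrays were left out, and with median scaling neither passed (0.791 and 0.207). The fall was that of Masp1, a protease of the lectin pathway, which was 470 to 696 with vehicle and 348 to 446 with GFP shRNA (-0.53 ± 0.11, adjusted p = 0.0124; 0.0545 without GFP shRNA array 5), while further probe sets for it gave 0.04 to 0.26. Of 15 clock genes 0 passed, 13 were below 0 (median -0.30) and 3 were lower at an unadjusted p under 0.05. Of 33 ribosomal protein genes and 17 bile acid genes 0 passed, with 2 and 5 at an unadjusted p under 0.05.

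Kcnk1, a potassium channel, and Ms4a4b, a membrane protein of T cells, were among the largest rises from low vehicle levels, and in the 9 arrays alone both lay below the filter. Kcnk1 was 2.23 to 22 with vehicle, 39.4 to 96.2 with GFP shRNA and 514 to 994 with Jnk1 shRNA (2.79 ± 0.51 against vehicle, adjusted p = 0.00603). Ms4a4b was 2.02 to 22.5 with vehicle and 33.9 to 69.9 with GFP shRNA (2.67 ± 0.50, adjusted p = 0.00671). Gtf2ird1 was 38.2 to 79.7 with vehicle, 6.81 to 32.5 with GFP shRNA and 81.7 to 111 with Jnk1 shRNA (-1.46 ± 0.36 against vehicle, adjusted p = 0.0404), and its fall did not pass on removal of vehicle array 1, 3 or 5, or of GFP shRNA array 5 (0.0733 to 0.102). Afp, which marks fetal liver, was 6.34 to 17.2 with vehicle and 16.4 to 22.4 with GFP shRNA and did not pass (0.69, adjusted p = 0.25), whereas it was 788 to 1600 with Jnk1 shRNA. All its vehicle and GFP shRNA values were under 28.4, and it passed the intensity filter only through the Jnk1 shRNA arrays.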
